A study of Mus musculus with 4 samples.

Results

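The coinhibitory and costimulatory receptors of T cells were followed through 10 genes (Ctla4, Icos, Pdcd1, Lag3, Tigit, Havcr2, Cd200, Btla, Lilrb4a and Cd96) in regulatory T cells (Treg), a Foxp3-expressing kind of CD4 T cell that holds immune responses back. Members were taken by gene symbol from probe sets annotated with a single symbol, with the brightest probe set (highest mean log2 intensity over the 4 arrays) standing for a gene. All 10 had such a probe set, among 22180 genes in all, and each of the 10 had only 1. Probe sets were thus selected on brightness, and the 10 genes were named with earlier results of these data known, so counts over them are a description.

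RNA came from Treg of mice labelled Foxp3Luci-DTR-4(B6 Albino), sorted as CD4 cells positive for Foxp3 and a green fluorescent reporter 4 days after an antibody was injected into the peritoneum. One group received an agonistic antibody against death receptor 3 (DR3, a TNF receptor superfamily member that costimulates T cells) and the other an isotype control antibody, with 2 Affymetrix arrays per group. The sources used here do not give age, dose, the number of mice per array or whether replicates were separate mice. The p-values therefore reflect array-to-array spread alone, possibly of technical origin. The comparison asked how stimulating DR3 in the living animal altered Treg transcripts.

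Receptors of this kind set the strength of a T cell response. ICOS delivers a costimulatory signal when it binds its ligand, whereas CTLA-4, PD-1, BTLA, LAG-3, TIGIT and TIM-3 restrain signalling, and CTLA-4 does so in Treg by taking the ligands of CD28 away from it. Several are written at higher levels by activated or effector Treg than by resting ones.

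After anti-DR3, 5 of the 10 receptor genes rose in limma at an adjusted p of 0.05 (Lilrb4a, Tigit, Lag3, Pdcd1 and Icos), 0 fell and 5 did not pass. Of all 12114 genes tested, 4.49% were called higher and 1.47% lower (5.96% in either direction). At an unadjusted p of 0.05, 6 of the 10 lay higher, Havcr2 among them, and 0 lower, against 16.6% of all genes higher and 9.57% lower (26.1% in either direction). The rises ran from 1.56-fold (Icos) to 3.38-fold (Lilrb4a), and the median log2 difference of the 10 was 0.69, against 0.01 for all genes tested. Havcr2 had the second largest difference, 2.47-fold, and did not pass. It reached the test only through the anti-DR3 arrays, since on both control arrays it lay below the median of all probe sets. Without it, 5 of 9 rose, with a median of 0.64. Groups did not overlap, in the higher direction, for 8 of the 10 (31.6% of all genes tested) and in the lower direction for 1 (24.6% of all). In either direction that is 9 of the 10, against 56.1% of all. In bulk RNA a larger share of cells that carry a receptor and more RNA per cell cannot be told apart.

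The calls changed with the arrays left out and with the filter on dim genes, and the cause was not tested. With the replicate number as a block, a fit with 1 residual degree of freedom, limma called 6 of the 10 (Havcr2 among them) and 563 of all genes. Fits on 3 arrays also have 1 residual degree of freedom, where the full fit has 2. Each of these fits called fewer of all genes than the full fit, and the median difference of the 10 ran from 0.61 to 0.76. In them limma called 0 of the 10 without anti-DR3 replicate 1 and again 0 when anti-DR3 replicate 2 was dropped, 1 (Pdcd1) without control antibody replicate 1 and 3 (Lag3, Tigit and Lilrb4a) without control antibody replicate 2, while 6, 6, 7 and 6 lay under an unadjusted p of 0.05. With no filter on dim genes limma also called 0 of the 10, beside 14 of all 22180 genes. Under an unadjusted p of 0.05 there were 6 of the 10, beside 3573 of all genes.

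**Figure D1:**
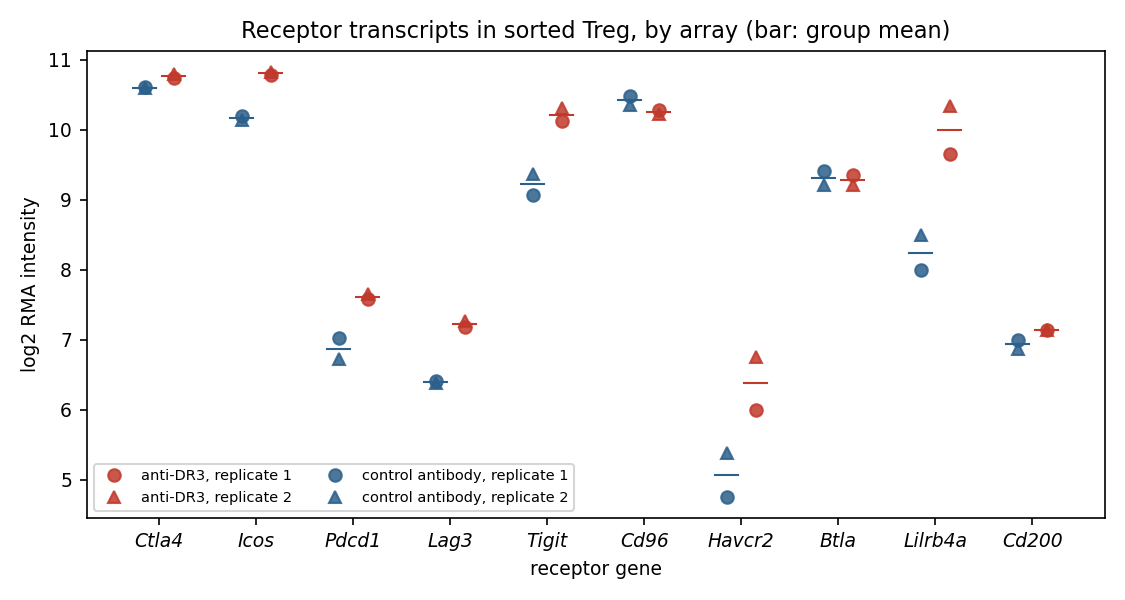
Log2 RMA intensity of each receptor gene on each array, with red for anti-DR3, blue for control antibody, circles for replicate 1, triangles for replicate 2 and a short bar for the group mean. The group means stand apart most for Lilrb4a, Havcr2 and Tigit, the nearest arrays of the groups are farthest apart for Lilrb4a, Lag3 and Tigit, and the groups overlap for Btla; levels of different genes come from different probes and cannot be set against each other.

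Among the relatives of CD28, Icos had the clearest separation. Icos read 10.78 and 10.82 after anti-DR3, against 10.19 and 10.14 after control antibody, on the log2 scale of the deposited intensities. Both anti-DR3 arrays lay above both controls by at least 0.60, while arrays of the same group differed by 0.038 and 0.049. The difference was 0.64 ± 0.078 (SE, n = 2 arrays per group), or 1.56-fold (adjusted p = 0.0151, limma).

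Ctla4, whose product removes CD80 and CD86 from the cells that present antigen, moved much less. It read 10.73 and 10.79 after anti-DR3, against 10.60 and 10.59 after control antibody. The arrays did not overlap, but the difference of 0.16 ± 0.078 did not pass (adjusted p = 0.257, limma). Its 95% interval ran from -0.030 to 0.35, so a rise above 1.28-fold lay outside it.

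Pdcd1, the gene of PD-1, read 7.58 and 7.65 after anti-DR3, against 7.02 and 6.72 after control antibody. The anti-DR3 arrays were close together and the control arrays 0.30 apart, with 0.56 between the nearest arrays of the groups. Pdcd1 rose by 0.74 ± 0.12, or 1.68-fold (adjusted p = 0.0279, limma).

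Btla, whose product binds the TNF receptor superfamily member HVEM, was the gene with overlapping groups. It read 9.36 and 9.21 after anti-DR3, against 9.41 and 9.21 after control antibody, and its difference of -0.03 ± 0.10 had a 95% interval from -0.28 to 0.23 (adjusted p = 0.901, limma). Differences between replicates were wider than the difference between groups.

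Lag3 encodes a CD4-like receptor that binds MHC class II. It read 7.19 and 7.26 after anti-DR3, against 6.40 and 6.38 after control antibody, so the gap between groups, at least 0.78, was far wider than that between replicates, 0.075 and 0.025. Lag3 rose by 0.83 ± 0.080, or 1.78-fold, and had the smallest adjusted p of the 10 (0.0104, limma). It was the 144th largest rise among the 12114 genes tested.

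Tigit and Cd96 encode receptors that share ligands of the nectin family, chiefly the poliovirus receptor Pvr, with the costimulatory receptor Cd226. Tigit read 10.12 and 10.30 after anti-DR3, against 9.07 and 9.36 after control antibody. It rose by 0.99 ± 0.13, or 1.99-fold (adjusted p = 0.0163, limma), with 0.76 between the nearest arrays of the groups. Cd96 was the member whose arrays lay lower after anti-DR3. It read 10.28 and 10.22, against 10.49 and 10.35 after control antibody, and its difference of -0.17 ± 0.088 did not pass (adjusted p = 0.288, limma; 95% interval from -0.38 to 0.047). Only 0.070 separated the nearest arrays.

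Cd226 read 8.78 and 8.63 after anti-DR3, against 8.73 and 8.68 after control antibody, with overlap and a difference of -0.0037 ± 0.089 (adjusted p = 0.987, limma).

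The upstream sequences of Tigit and Pdcd1, which rose, and of Cd96, which did not, are shown to compare what letters they hold. Each is the 250 bases before the start that the RefSeq promoter table of GRCm38.p6 lists, read 5′ to 3′ on the gene's strand: chr16:43664185-43664434 (minus strand) for Tigit, chr1:94052554-94052803 (minus strand) for Pdcd1 and chr16:46120249-46120498 (minus strand) for Cd96. Capitals mark matches, on either strand, to any of 6 motifs: GGAAA (the core bound by NFAT), TGANTCA (AP-1), NF-kappaB (GGG, then 5 bases of any kind, then CC), TGTGGT (Runx), TATAAA (the TATA box) and GGAAGT (Ets).
Tigit: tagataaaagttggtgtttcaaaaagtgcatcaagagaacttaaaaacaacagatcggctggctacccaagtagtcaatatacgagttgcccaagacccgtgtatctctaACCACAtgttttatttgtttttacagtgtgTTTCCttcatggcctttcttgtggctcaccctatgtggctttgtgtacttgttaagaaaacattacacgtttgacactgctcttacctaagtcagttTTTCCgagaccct
Pdcd1: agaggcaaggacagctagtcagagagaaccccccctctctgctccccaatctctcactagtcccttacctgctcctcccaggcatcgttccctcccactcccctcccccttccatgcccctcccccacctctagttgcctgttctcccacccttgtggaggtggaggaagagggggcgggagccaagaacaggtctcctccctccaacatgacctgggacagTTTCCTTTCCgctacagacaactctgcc
Cd96: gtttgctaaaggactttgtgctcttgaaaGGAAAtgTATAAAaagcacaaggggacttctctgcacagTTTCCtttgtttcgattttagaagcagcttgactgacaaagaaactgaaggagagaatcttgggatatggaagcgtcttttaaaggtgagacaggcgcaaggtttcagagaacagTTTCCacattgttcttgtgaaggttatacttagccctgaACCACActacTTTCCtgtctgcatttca

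Of the 10 genes 7 matched an entry of that table. GGAAA stood in 4 of these 7 windows (Ctla4, Pdcd1, Tigit and Cd96), against 55.6% of all 32851 windows of this length in the table. Tigit and Pdcd1 had 2 matches each, whose first bases lay at -110 and -13 in Tigit and at -28 and -23 in Pdcd1, counted from the start with -1 as the base before it. Cd96 had 4. TGTGGT stood in 4 of 7 (Havcr2, Tigit, Btla and Cd96; 14% of all), GGAAGT in 2 (19.7%), TGANTCA in 1 (Havcr2; 6.7%), TATAAA in 1 (Cd96; 12.4%) and the NF-kappaB motif in 0 (45.8%). GGAAA and TGTGGT thus occurred both in genes that rose and in genes that did not pass. Such a match is a run of letters and not a measured binding site.

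Lilrb4a, an inhibitory receptor of the leukocyte immunoglobulin-like family, had the largest difference of the 10 and the 4th largest rise of all genes tested. It read 9.66 and 10.34 after anti-DR3, against 7.99 and 8.49 after control antibody. Replicates differed by 0.69 and 0.50, and 1.17 separated the nearest arrays of the groups. Lilrb4a rose by 1.76 ± 0.26, or 3.38-fold (adjusted p = 0.0239, limma). The call ended with a trended robust prior (adjusted p = 0.0675, limma). Lilr4b, a closely related gene that neighbours Lilrb4a with 0 coding genes between, had no probe set of its own here, so signal from it in the Lilrb4a probe set cannot be told apart.

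Havcr2, the gene of TIM-3, read 6.0 and 6.76 after anti-DR3, against 4.76 and 5.39 after control antibody. The groups did not overlap, with 0.61 between the nearest arrays, but replicates differed by as much, 0.76 and 0.63. The difference of 1.30 ± 0.30 did not pass (adjusted p = 0.0616, limma). Both control arrays lay below the median of all probe sets, so Havcr2 was tested only because it was brighter after anti-DR3, and its fold and p are given as a description. The adjusted p was 0.171 when dim genes were kept in, 0.0394 with a trended robust prior and 0.0206 with the replicate number as a block (limma).

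Cd200 encodes a membrane glycoprotein that engages the inhibitory receptor CD200R on other cells. It read 7.13 and 7.14 after anti-DR3, against 6.999 and 6.871 after control antibody. The arrays did not overlap, with 0.14 between the nearest, and the difference of 0.20 ± 0.085 did not pass (adjusted p = 0.200, limma; 95% interval from -0.0052 to 0.41).

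**Figure D2:**
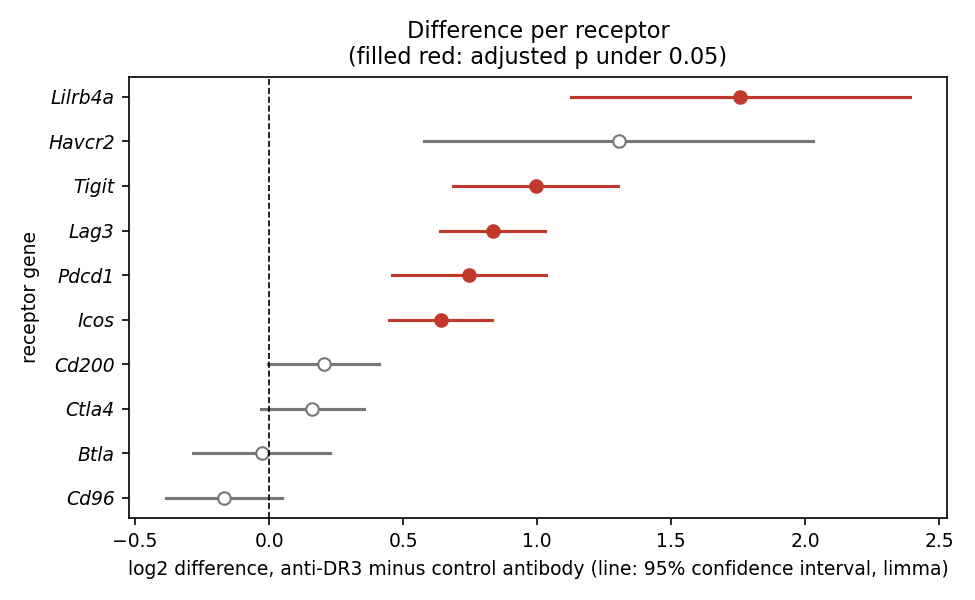
Log2 difference (anti-DR3 minus control antibody) of each receptor gene with its 95% confidence interval in limma, sorted by size; filled red symbols passed an adjusted p of 0.05. The intervals of Lilrb4a and Havcr2 are the widest, and those of Cd200, Ctla4, Btla and Cd96 include 0.

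Receptors that share ligands were also set against each other within each array, which leaves aside any scaling of a whole array. The log2 ratio of Ctla4 to Cd28, the costimulatory receptor that binds the same ligands, was 0.37 and 0.59 after anti-DR3, against 0.26 and 0.22 after control antibody. It differed by 0.24, against a pooled SD of 0.11 between replicates, and by 0.13 without anti-DR3 replicate 2. The ratio of Icos to Cd28 differed by 0.72 (pooled SD 0.11) and that of Ctla4 to Icos by -0.48 (pooled SD 0.021). Cd28, Ctla4 and Icos neighbour one another on chromosome 1, with 0 coding genes between them, and of these neighbours Icos alone passed the test. Cd28 itself read 10.37 and 10.19 against 10.35 and 10.37, with a difference of -0.08 ± 0.091 (adjusted p = 0.643, limma).

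Among the receptors of nectin-family ligands, the log2 ratio of Tigit to Cd226 was 1.34 and 1.68 after anti-DR3, against 0.34 and 0.68 after control antibody, a difference of 0.998 (pooled SD 0.24). The ratio of Cd96 to Cd226 differed by -0.16 (pooled SD 0.067). The ratio of Tigit to Cd96 rose from -1.41 and -0.98 to -0.16 and 0.083, a difference of 1.16. For these 6 ratios the groups did not overlap. An exact permutation test with 2 arrays against 2 gave p = 0.333 for each (two-sided), the smallest it can give, so none could pass. These values show unequal change between genes and not how much of each receptor a cell holds.

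**Figure D3:**
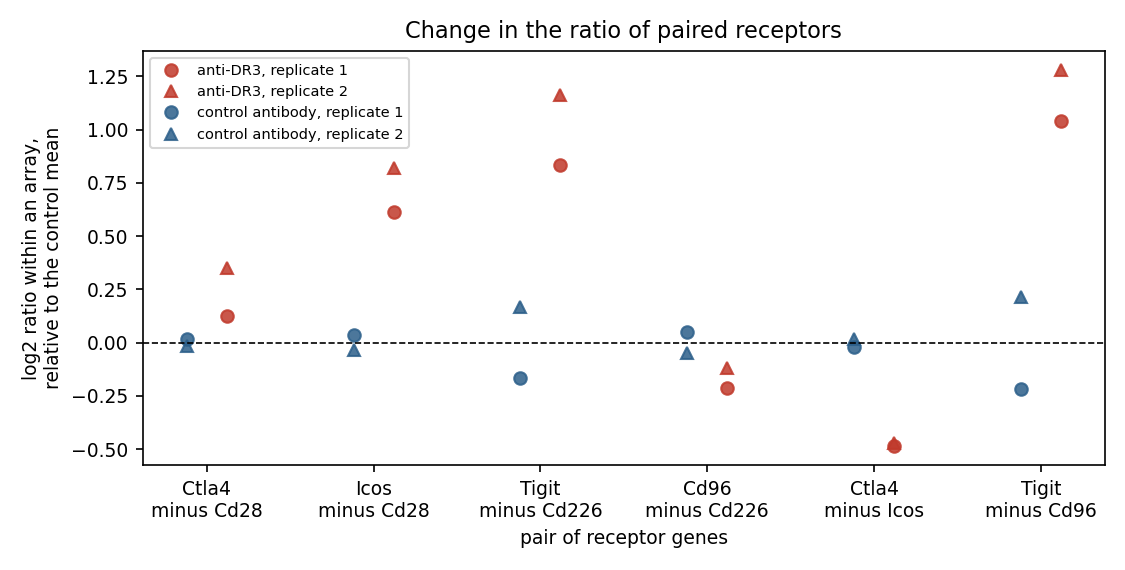
Log2 ratio of paired receptor genes within each array, drawn relative to the mean of the control arrays, with the colours and symbols of the plot of levels. The anti-DR3 arrays lie above the control arrays for Ctla4, Icos and Tigit against their partners, and below for Cd96 against Cd226 and for Ctla4 against Icos.

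Foxp3, by which the cells were sorted, read 11.93 and 11.90 on the anti-DR3 arrays and 11.89 and 11.81 on the controls. Set against Foxp3 on the same array, the 5 receptors that rose differed by 0.58 (Icos), 0.68 (Pdcd1), 0.77 (Lag3), 0.93 (Tigit) and 1.69 (Lilrb4a). The groups did not overlap for these 5 ratios, nor for those of Ctla4, Cd200 and Havcr2 (higher) and Cd96 (lower) to Foxp3, so a lack of overlap does not set the genes that rose apart.

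The genes around these receptors came from lists of ligands, related receptors, signalling proteins and transcription factors. Of 15 ligands and counter-receptors tested (19 listed), 4 rose and 0 fell in limma, or 26.7% higher beside 4.49% of all genes. At an unadjusted p of 0.05, 8 lay higher and 1 lower (16.6% and 9.57% of all genes), and the median was 0.22. Cd80, a ligand of CTLA-4 and CD28, read 8.61 and 8.63 after anti-DR3, against 7.89 and 7.63 after control antibody, and rose 1.81-fold (0.86 ± 0.11, adjusted p = 0.0163, limma). Cd274, the PD-1 ligand PD-L1, read 9.0 and 9.04 against 8.41 and 8.28 and rose 1.60-fold (0.68 ± 0.087, adjusted p = 0.0166, limma). H2-Aa and H2-Ab1, the MHC class II chains that LAG-3 can bind, rose 1.62- and 1.47-fold (adjusted p = 0.0367 and 0.0490, limma). H2-Aa was dim, at 6.29 and 6.12 against 5.65 and 5.36, the last of these below the median of its array.

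The remaining ligands are named after their values were seen. Pvr, the ligand of TIGIT, CD96 and CD226, read 7.18 and 7.04 after anti-DR3, against 7.90 and 7.51 after control antibody, a difference of -0.59 ± 0.14 that did not pass (adjusted p = 0.0680, limma). Its arrays did not overlap, and they lay the opposite way to those of Tigit. Pdcd1lg2, the other PD-1 ligand, differed by 0.49 ± 0.12 (adjusted p = 0.0687, limma) and Cd200r1, the receptor of Cd200, by 0.56 ± 0.14 (adjusted p = 0.0757, limma). Cd86 differed by -0.03, Icosl by 0.16, the BTLA partner Tnfrsf14 by 0.15 and the TIM-3 ligand Lgals9 by 0.31, and none of these passed.

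Of 20 partner and related receptors tested (30 listed), 1 rose and 0 fell, with 4 higher and 0 lower at an unadjusted p of 0.05 and a median of 0.02. The 5.0% that rose is near the 4.49% of all genes, and 4 of 20 is below the 26.1% of all genes under an unadjusted p of 0.05. The rise was Slamf6, a receptor of the SLAM family that binds itself on neighbouring cells, at 10.74 and 10.77 against 10.09 and 10.15 (0.64 ± 0.079, adjusted p = 0.0156, limma), while its dimmer probe set gave -0.17 with overlapping arrays. The call ended when the probe sets of a gene were averaged. Cd83, Cd48 and Cd6 had the next largest statistics, with differences of 0.41, 0.36 and 0.23 that did not pass. The coinhibitory receptor gene Vsir, named after its values were seen, differed by -0.0022 ± 0.084 (adjusted p = 0.992, limma).

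Of 29 genes of receptor-proximal signalling and trafficking (30 listed), 2 rose and 0 fell, with 5 higher and 3 lower at an unadjusted p of 0.05 and a median of 0.09. The 6.9% that rose is near the 4.49% of all genes, and 8 of 29 is near the 26.1% under an unadjusted p of 0.05. Sh2d1a, the adaptor SAP that works downstream of SLAM receptors, rose by 0.63 ± 0.10, or 1.55-fold (adjusted p = 0.0282, limma). Adam17, a protease that sheds LAG-3 among many surface proteins, rose by 0.43 ± 0.079, or 1.34-fold (adjusted p = 0.0387, limma). Lrba, which protects CTLA-4 from lysosomal breakdown, differed by 0.41 ± 0.089 (adjusted p = 0.0556, limma) and Prkcq, a kinase of the CD28 pathway, by -0.35 ± 0.080 (adjusted p = 0.0622, limma). The phosphatase genes Ptpn6 and Ptpn11, whose products dock on the inhibitory motifs of PD-1 and BTLA, were named after their values were seen and differed by 0.025 and 0.10, with overlapping arrays.

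Of 21 transcription factor genes with a role in expressing such receptors (22 listed), 5 rose and 1 fell, with 8 higher and 6 lower at an unadjusted p of 0.05 and a median of 0.21. The share that rose was 23.8%, beside 4.49% of all genes. Batf, an AP-1 family factor of effector Treg, read 7.82 and 7.95 after anti-DR3, against 7.01 and 6.92 after control antibody, and rose 1.90-fold (0.92 ± 0.089, adjusted p = 0.0104, limma). Ikzf2 (Helios) rose 1.49-fold and Id2 1.45-fold. Bach2, whose product represses effector genes, read 7.64 and 7.63 against 8.40 and 8.24 and fell by 0.69 ± 0.089 (adjusted p = 0.0177, limma). Tox and Irf4, named after their values were seen, rose by 0.51 and 0.46. Maf and Prdm1, factors tied to coinhibitory receptor expression and also named after their values were seen, differed by 0.56 ± 0.12 and 0.70 ± 0.17 and did not pass (adjusted p = 0.0523 and 0.0713, limma). The second probe set of Maf gave 0.65. Besides Bach2, those lower at an unadjusted p of 0.05 were Nr4a1 (-0.36), Bcl6 (-0.33), Foxo1 (-0.32), Foxo3 (-0.31) and Nr4a3 (-0.27). They were likewise named after their values were seen, and none passed. The second probe set of Foxo1 gave -0.13 with overlapping arrays.

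The calls in these 4 lists, 12 higher and 1 lower among 85 genes, moved with the arrays and the settings used. Without the first anti-DR3 array limma called 0, and without the other also 0, with 27 at an unadjusted p of 0.05 both times. It called 2 without control antibody replicate 1 and 6 (4 higher, 2 lower) without control antibody replicate 2. With no filter on dim genes it called 0 of 96 (32 at an unadjusted p of 0.05), beside 14 of all 22180 genes (3573). With the stricter filter it called 24 of 79 (18 higher, 6 lower), beside 1157 of all 8731. A trended robust prior gave 28 of 85 (21 higher, 7 lower), beside 1444 of all 12114.

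**Figure D4:**
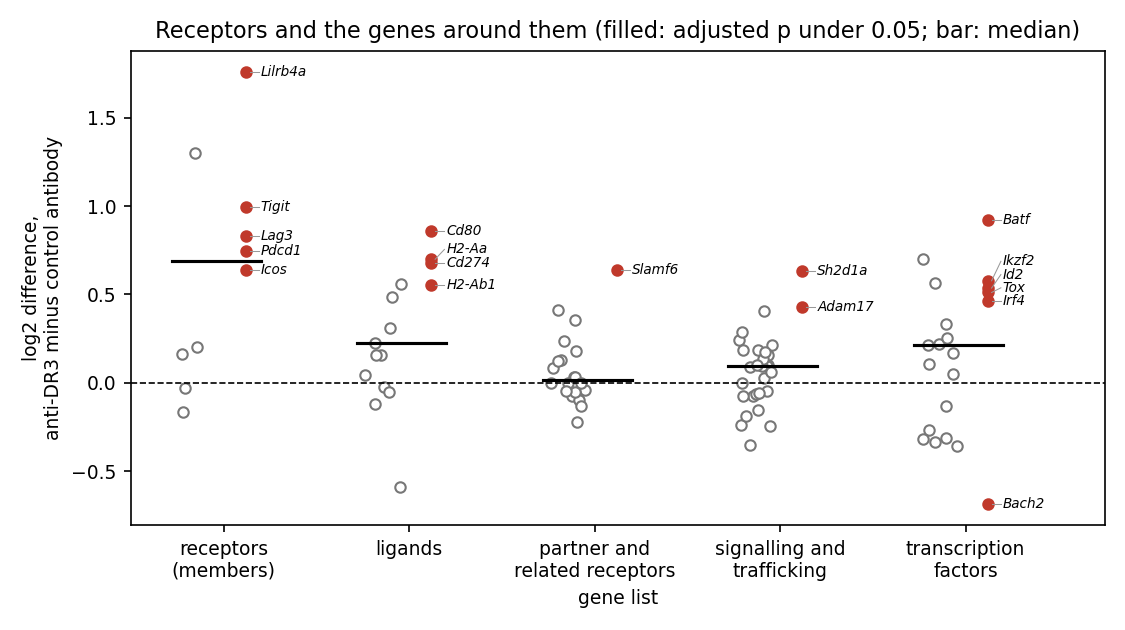
Log2 difference (anti-DR3 minus control antibody) of the receptor genes and of the tested members of the 4 lists around them, each symbol a gene, filled red and named where the adjusted p in limma was under 0.05, with a bar at the median. The medians are 0.69 for the receptors, 0.22 for ligands, 0.02 for related receptors, 0.09 for signalling and 0.21 for transcription factors.

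All 12 Treg markers were bright enough to test. Ikzf2 and Itgae rose, Il2ra, Lrrc32 and Gpr83 fell, and Foxp3, Cd4 and Cd3e did not pass. Markers of some other cells moved with the receptors, and their part in the rises was not tested. Of the 10 monocyte and macrophage markers tested, which matter for Lilrb4a and Havcr2, 1 rose (Csf1r, 1.34-fold). At an unadjusted p of 0.05, 2 lay higher and 1 lower. Besides Csf1r these were Itgam (0.47) and Fcgr3 (-0.30), named after their values were seen, and neither passed. Itgam lay below the median on both control arrays and was tested only through the anti-DR3 arrays. The summed linear intensity of the 13 such markers with a probe set was 826 and 892 after anti-DR3, against 783 and 817 after control antibody. Cd14, Adgre1 and Fcgr1 lay below the median of all probe sets on every array. The defining B cell markers Ms4a1, Cd79a and Pax5 were also too dim to test. Among 4 tested, Ighm (1.18 and 0.053 on its other bright probe sets), H2-Aa and H2-Ab1 rose. Cd79b, the remaining one and named after its values were seen, differed by 0.18 with overlapping arrays (adjusted p = 0.379, limma). The sum over 10 was 4425 and 4645 against 2901 and 3121, and Ighm made up most of it. On the log2 scale Ighm read 11.96 and 12.04 against 11.31 and 11.44. H2-Ab1 read 6.91 and 6.62 against 6.23 and 6.20, and Cd79b 6.52 and 6.74 against 6.55 and 6.35. Of 8 markers of type 2 innate lymphoid cells Rora, Klrg1 and Il9r rose, with 5 higher and 0 lower at an unadjusted p of 0.05. Il13, named after its values were seen, differed by -0.09 with overlapping arrays. Il5 was dim, and Il1rl1 and Areg had no probe set. The sums over 9 were 4340 and 4739 against 2848 and 2911, and Il7r and Klrg1 made up most of them. Of 6 CD8 T cell markers Cd8b1 and Ccl5 rose, 1 lay lower at an unadjusted p of 0.05, and the median was 0.04. Cd8a was dim, and the sums over 8 were 1180 and 1399 against 1004 and 901. Of 3 natural killer markers 0 changed in limma (1 lower at an unadjusted p of 0.05), Ncr1 was dim, and the sums over 8 were 273 and 264 against 308 and 267. Of 6 follicular helper markers Sh2d1a rose, Cxcr5 differed by 0.11, and Bcl6, named after its values were seen, differed by -0.33 and did not pass. At an unadjusted p of 0.05, 1 of the 6 lay higher and 1 lower, and the sums over 8 were 990 and 984 against 834 and 858. Of 6 proliferation markers 5 rose, with Mki67 at 3.44-fold and sums over 8 of 1566 and 1584 against 512 and 555. Among these 5, Ccna2 read 5.16 and 5.29 on the control arrays, below their medians of 5.38 and 5.39. Like Havcr2, it was tested only through the anti-DR3 arrays. Of 7 markers of conventional CD4 T cells, 4 fell (Igfbp4, Pde3b, Actn1 and Satb1), with sums over 8 of 3949 and 3738 against 4656 and 4306. At an unadjusted p of 0.05, 6 lay lower and 1 higher. The higher one was Il7r, the brightest of the list and named after its values were seen. Il7r read 11.01 and 11.06 against 10.51 and 10.68 and did not pass (0.44 ± 0.091, adjusted p = 0.0519, limma). Of 5 plasma cell markers 1 rose (Irf4), of 4 dendritic cell markers 0 changed in limma (2 lower at an unadjusted p of 0.05), and all 8 neutrophil and mast cell markers were too dim to test.

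**Figure D5:**
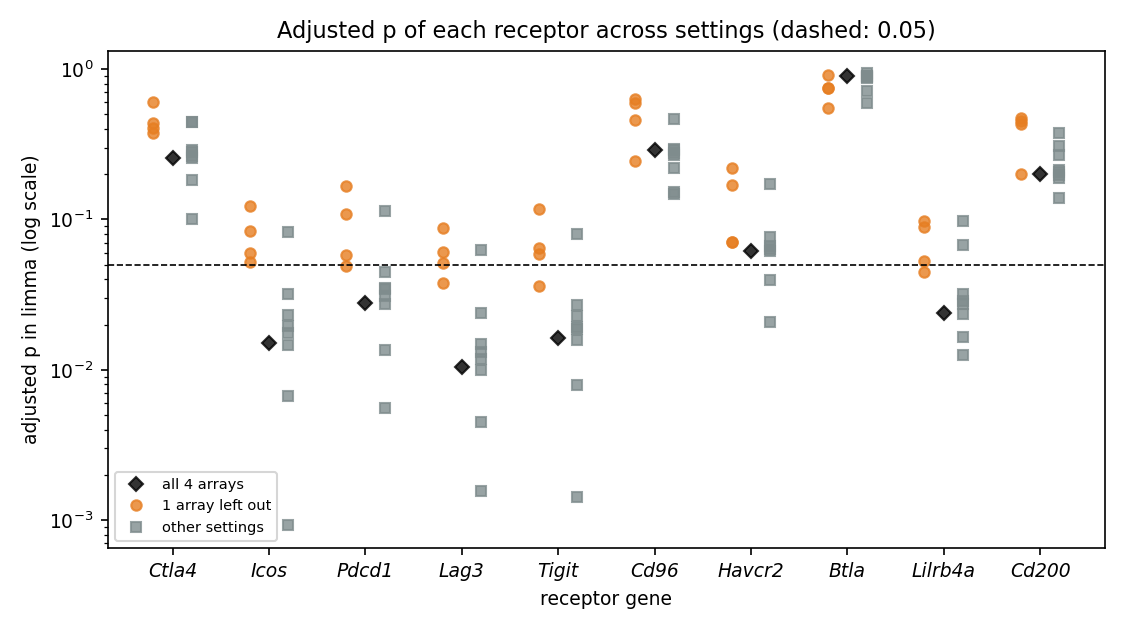
Adjusted p in limma (log axis) of each receptor gene with all 4 arrays (black diamonds), with 1 array left out (orange circles) and under the other settings (grey squares), with a dashed line at 0.05. When an array is left out, Pdcd1, Lag3, Tigit and Lilrb4a lie on both sides of the line and Icos above it, and Ctla4, Cd96, Btla and Cd200 lie above it in every setting drawn.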

How the data were processed

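The authors deposited an intensity per probe set from RMA, the tool in the submitters' processing notes. The intensities are linear, as read from the values (array medians of 40.2 to 42.0). For software version and build: not given in the sources used here. RMA (robust multi-array average) as usually run gives arrays a shared distribution, which can hide a change common to all genes. Log2 was taken of 41345 probe sets, of which 23521 had 1 symbol, 1814 several and 16010 none in the platform annotation.

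Genes above the array median of all probe sets on at least 2 of 4 arrays (12114) were tested with limma 3.58.1 in R 4.3.3 (lmFit, eBayes, two-sided) and Benjamini-Hochberg adjustment over all of them. Of these 722 were called, 544 higher and 178 lower, and 348 higher and 243 lower once arrays were centred on their median. Replicates correlated at 0.992 (anti-DR3) and 0.989 (control antibody), and pairs across groups at 0.975 to 0.980. The number of arrays limits precision. The code was tested on simulated data.

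Members and lists were chosen with earlier results of these data known. Named genes were the members, Cd28, Cd226, Foxp3, up to 4 genes per list by size of the moderated statistic, called markers and defining markers, apart from those stated to be named after their values were seen. RefSeq tables of GRCm38.p6 served for names, neighbours and upstream sequences. Figures were drawn with matplotlib 3.10.9. The alternatives were the replicate block, each array left out, other filters, scalings, probe set rules, prior and threshold.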

Additional observations from a re-analysis of the deposited data

Results flagged for a closer look

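A probe set annotated to both Lilr4b and Lilrb4a was outside the comparison because it carries more than 1 symbol. On the log2 scale it read 6.11 and 7.17 on the anti-DR3 arrays and 4.92 and 5.56 on the controls. Both anti-DR3 arrays lay above both controls, by 1.40 on average (2.64-fold), against 1.76 for the probe set of Lilrb4a alone. This difference was not tested.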

How the results depend on the processing

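Dropping single arrays leaves 1 array in a group, whose spread is then taken from the other group. In these fits limma called 0 to 312 genes in all (1967 under an unadjusted p of 0.05 where it called 0) and 0 to 3 of the 10 receptors higher. No filter on dim genes gave 14 genes and 0 receptors (6 under an unadjusted p of 0.05). The stricter filter gave 1157 genes, a trended robust prior 1444 and an adjusted p under 0.10 gave 1689. The causes were not tested, and some of these settings themselves bring fewer arrays or another number of genes tested. Receptors called higher numbered 5 or 6 under the other settings, and 0 were lower in every setting. Their median ran from 0.61 to 0.76. Btla turned direction without anti-DR3 replicate 2 (0.044) and without control antibody replicate 1 (0.071). Over the fits without 1 array it ran from -0.13 to 0.071 and was never called. Labels do not say what replicate numbers share, and the replicate differences of the groups had a correlation of 0.051 over genes, from only 2 pairs, so the numbers were not taken as pairs. The replicate block gave 563 genes and 6 receptors, Havcr2 (adjusted p = 0.0206, limma) being added, which was tested only through its anti-DR3 arrays. Leaving out Havcr2 was chosen after seeing the data.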

Other observations

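The differences between replicates had the same sign in both groups for 5 of the 10 receptors, and over all genes they had a correlation of 0.051 between the groups. Replicate 2 lay above replicate 1 in both groups for Lilrb4a (by 0.69 after anti-DR3 and 0.50 after control antibody), Havcr2 (0.76 and 0.63) and Tigit (0.18 and 0.29), and below it in both for Btla and Cd96. For the other 5 genes the sign differed between the groups.

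Genes that lie between the receptors on chromosome 16 were read as well. Between Tigit and Btla RefSeq lists 21 coding genes, of which 16 were tested, 0 were called in limma (5 under an unadjusted p of 0.05) and the differences ran from -0.24 to 0.56. Btla and Cd200 are direct neighbours, with differences of -0.03 and 0.20. Between Cd200 and Cd96, of 10 coding genes 3 were tested and 0 were called in limma (1 under an unadjusted p of 0.05). Of all genes tested, 5.96% were called and 26.1% lay under an unadjusted p of 0.05.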
